A study of Drosophila melanogaster with 2 samples.

Results

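Capr, Fmr1, Atx2, rin, me31B and tral encode proteins of neuronal RNA granules, and binding of a tagged transcription factor was measured at these 6 of 13968 protein-coding genes. The set was selected on the deposited promoter signal of Capr, which was among the strongest of the experiment, and filled up with other named granule proteins. The promoter signals below are therefore a description, and no test was made on them. The measurements came from 1 group of whole Drosophila melanogaster embryos, 8 to 24 h old, of a strain with an insertion from which nerfin-2 is made as a fusion with eGFP. Chromatin was sheared by sonication and precipitated with an antibody to GFP, followed by sequencing (ChIP-seq), in 2 biological replicates. All embryos carried the fusion, no list of an untagged strain or of input chromatin was used here, and whole embryos mix every cell type, so no value belongs to neurons in particular. The tagged protein has zinc fingers and resembles nerfin-1, which acts in young neurons.

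RNA granules are assemblies of messenger RNA and protein without a membrane, in which messages are held untranslated, moved along neurites or broken down. Capr is the fly Caprin and rin the fly G3BP, and in vertebrate cells these proteins bind each other in stress granules. Fmr1 encodes the fly FMRP, a translational regulator at synapses that works with Capr in the early fly embryo, and Atx2 encodes Ataxin-2, a partner of poly(A)-binding protein. The helicase me31B and its partner tral belong to P bodies, where messages are stored or decapped.

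Peaks were compared in 8 deposited lists on genome build dm6. Of the 4 thresholded lists, the conservative list and a second list were called across both replicates and the others in replicate 1 and in replicate 2 alone, and each has a longer ranked list behind it. On the main chromosome arms the conservative list held 2793 peaks, the second 3358, replicate 1 2554 and replicate 2 1737. The signal of a peak is the value its caller gave, and the deposited score rises towards 1000 as a call becomes more reproducible, with 830 the lowest score in the conservative list. A peak was given to a promoter when its summit, the base of highest signal, lay within 500 bp of any annotated transcription start site (TSS) of the gene. The lists carry no read numbers, which leaves the depth of the replicates unknown and allows no counting error.

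The sequences under the summits are shown first because at these summits the DRE core set Capr and Atx2 apart from Fmr1, rin and tral. For rin this rests on its weak conservative call of 22.6. Its strongest ranked promoter call had 1 copy in replicate 1 and in both lists across replicates, and none in replicate 2. Each sequence is read 5′ to 3′ on the gene's own strand from the Release 6 assembly. Capitals mark CGATA, the core of the promoter sequence called DNA replication-related element (DRE), or its complement TATCG. The summit of Capr lies inside a 5′ UTR and is cut to 30 bases, and that of Atx2 is cut to the same number of UTR bases. They are at chr3L:18673205-18673234 (minus strand) for Capr, chr3R:15408365-15408452 (plus) for Atx2, chr3R:10108603-10108703 (minus) for Fmr1, chr3R:13648436-13648536 (plus) for rin and chr3L:12514851-12514951 (plus) for tral. The tral site is a summit of the second list and the others are summits of the conservative list. Of the 4 core copies within 50 bp of the Capr summit, not all lie in the short stretch shown.
Capr: cggcaatgtgcatcgTATCGaactgctagc
Atx2: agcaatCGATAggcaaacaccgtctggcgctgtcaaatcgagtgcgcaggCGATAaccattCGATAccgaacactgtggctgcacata
Fmr1: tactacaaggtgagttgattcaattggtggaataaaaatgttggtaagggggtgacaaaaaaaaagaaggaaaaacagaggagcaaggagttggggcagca
rin: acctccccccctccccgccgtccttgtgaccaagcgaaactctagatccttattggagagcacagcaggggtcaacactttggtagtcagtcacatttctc
tral: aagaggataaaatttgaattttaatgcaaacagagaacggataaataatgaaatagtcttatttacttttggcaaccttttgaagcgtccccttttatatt

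Of the 6 genes, 4 had a promoter summit in the conservative list, namely Capr, Atx2, Fmr1 and rin, against 19.4% of all protein-coding genes. In the second list 4 had one as well, with tral in place of rin, against 21.4% of all genes. In each replicate's own list only Capr and Atx2 had one, against 18.0% of all genes in replicate 1 and 13.6% in replicate 2. Since Capr was the reason for the choice, nothing is read from these shares. In the ranked lists, where most genes have a call, a promoter summit was found at 5 of the 6 genes in the conservative ranked list (84.6% of all genes), at 5 in the second ranked list (86.2%), at 6 in that of replicate 1 (83.5%) and at 5 in that of replicate 2 (81.2%). The gene missing from those lists was me31B.

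**Figure D1:**
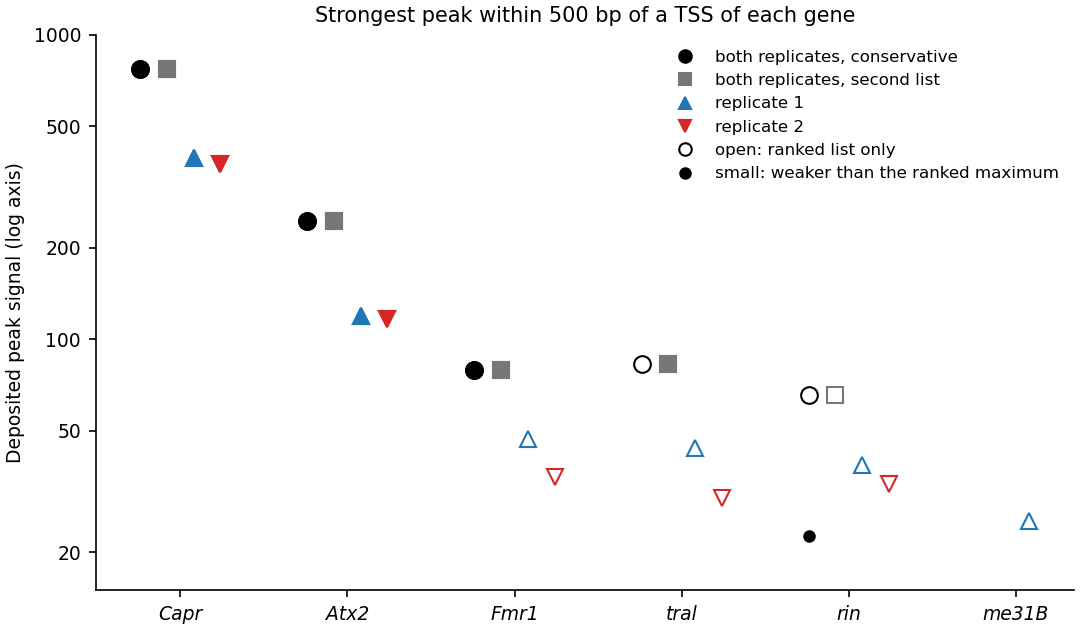
Strongest deposited peak signal (log axis) within 500 bp of a TSS for each of the 6 genes, in the lists across both replicates and in each replicate. Filled marks are thresholded calls, open marks are in the ranked list only, and the small filled circle at rin is a thresholded call of 22.6 that is weaker than the strongest ranked one. Capr lies highest in every list at 775, 393 and 377, Atx2 next, and the other genes at 82.9 or below.

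Capr (FBgn0042134, chr3L:18668153-18673324, minus strand) had one of the strongest promoter peaks of the experiment. Its signal was 775 in both the conservative and the second list, 393 in replicate 1 and 377 in replicate 2. The score was 1000 in all 4 lists. Every list placed Capr near its top, at rank 7 of 2793 peaks in the conservative list, 7 of 3358 in the second, 10 of 2554 in replicate 1 and 5 of 1737 in replicate 2. Among the 2709 genes with a conservative promoter summit it was 9th, in the top 0.332%, and the median of those genes was 148. The 2 annotated TSSs of Capr are 164 bp apart, and the summit lay between them, 104 bp inside the longer transcript, in its 5′ UTR, and 60 bp upstream of the inner TSS. The replicates put the summit 53 bp and 67 bp upstream of that TSS, 14 bp from each other.

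The Capr peak was narrower than most peaks but wider than the median of the strongest. It covered 311 bp, chr3L:18673085-18673395, while 89.9% of conservative peaks had the same width of 400 bp and none was wider. Narrow calls were the rule among strong peaks, since 99 of the 100 strongest were under 400 bp, and their median width of 226.5 bp was below that of Capr. In replicate 1 the Capr peak covered 255 bp and in replicate 2 249 bp, against medians of 198.5 bp and 170.0 bp for the 100 strongest peaks. A second conservative call, with a signal of 10.5, had its summit 208 bp from the main one and overlapped it by 168 bp. Inside the gene body the next strongest call of the conservative ranked list was 65.4, 861 bp downstream of a TSS, so the high signal of Capr was limited to its start in these lists.

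Atx2 (FBgn0041188, chr3R:15408423-15417277, plus strand) came second of the 6 genes, well below Capr. The signal at its promoter was 244 in the conservative and second lists, 119 in replicate 1 and 116 in replicate 2. It was called with a score of 1000 in all 4. The summit across replicates lay 8 bp upstream of the outermost of its 3 TSSs, and those of the replicates lay 32 bp and 31 bp downstream of it, 1 bp apart. It ranked 569 among the 2709 genes, the top 21.0%. Each replicate also held a weaker call inside the 5′ UTR, of 64.7 at 231 bp in replicate 1 and 21.7 at 240 bp in replicate 2. In the conservative ranked list a call of 156 at 197 bp had a score of 321, below the threshold. No thresholded call lay at the inner TSSs, which start 1028 bp and 2469 bp into the gene, and the strongest ranked one there was 67.0.

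Fmr1 (FBgn0028734, chr3R:10101420-10110121, minus strand) had a weak thresholded call at an inner start and no thresholded summit within 500 bp of its outermost one. The conservative and second lists both gave 79.2, with scores of 929 and 1000. In the conservative list this placed it at 2509 of 2709 genes, near the end of the order. The summit lay in an intron 311 bp upstream of the innermost of 5 TSSs, from which 3 of the 11 transcripts start, and 1468 bp inside the outermost TSS, from which 5 start. Neither replicate's thresholded list had a summit in the window. Replicate 2 had a call of 61.8 with a score of 831 that lay 513 bp upstream of the outermost TSS, just outside it. The ranked lists held calls near the innermost TSS of 47.1 in replicate 1 and 35.3 in replicate 2, with scores of 41 and 422. By the outermost TSS the ranked lists also held calls below the threshold, of 53.6 at 71 bp upstream in both lists across replicates, 38.7 at 69 bp upstream in replicate 1 and 14.99 at 36 bp downstream in replicate 2.

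The Fmr1 gene body held 2 further conservative calls, of 71.6 and 29.97, both in coding sequence. Their summits were 204 bp apart, the intervals overlapped by 196 bp, and neither call was in the second list. For the 6 genes together, the body held a conservative summit at Capr, Fmr1 and rin, which is 3 genes against 8.54% of all. The same 3 genes had one in the second list, against 10.7% of all, and Capr and Atx2 had one in each of the replicates, against 7.73% in replicate 1 and 4.7% in replicate 2. Promoter summits that fall inside the gene, as at Capr, Fmr1 and rin and in the replicates at Atx2, count in the body too. The only body summit of Fmr1 in the second list was its promoter call of 79.2.

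rin (FBgn0015778, chr3R:13647004-13654527, plus strand) was among the weakest genes called. Its conservative promoter signal of 22.6 ranked 2699 of 2709 genes. The call had a score of 840, lay in an intron 336 bp upstream of the inner TSS, and overlapped a stronger call of 67.7 by 192 bp. That stronger call had the same score of 840, but its summit was 544 bp upstream of the TSS and so just outside the window. Such neighbours were the usual form of weak calls, since 157 of the 158 conservative peaks with a signal under 30 overlapped a stronger peak. The second list kept only the call of 67.7, and neither replicate's thresholded list had a call at rin. Near the outermost TSS, where 3 of the 4 transcripts start, the conservative ranked list held 65.8 with a score of 825, just under the lowest thresholded score, and the replicates' ranked lists held 38.5 in replicate 1 and 33.6 in replicate 2.

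tral (FBgn0041775, chr3L:12515059-12520954, plus strand) was called in the second list alone. There its signal was 82.9 with a score of 868, at 2488 of 2988 genes. The same call had a score of 781 in the conservative ranked list and was not in the conservative list. In all, 434 genes, tral among them, had a promoter summit in the second list and none in the conservative one. Ranked calls near the TSS were 43.9 in replicate 1 and 30.1 in replicate 2, and neither passed. The summit lay 158 bp upstream of tral but 86 bp from the TSS of the divergent gene sti, which encodes a citron kinase of cell division, and 108 bp from that of lncRNA:CR45168. The peak can therefore not be assigned to tral rather than to its neighbours. Among the strongest promoter summits of the 6 genes in each list, those of tral were the only ones shared with a TSS of another gene.

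me31B (FBgn0004419, chr2L:10239341-10242172, plus strand) was the gene of the 6 without a thresholded call. No thresholded list and neither ranked list across replicates held a summit in its promoter or its body, and the ranked list of replicate 2 held none either. Replicate 1 alone held 2 ranked promoter summits, the stronger with a signal of 25.2 and a score of 215, near the middle of all genes at 6334 of 11657. Of the 7436 protein-coding genes of at least 2000 bp, 182 (2.45%) shared this absence from the conservative ranked list and 176 (2.37%) that from replicate 2.

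**Figure D2:**
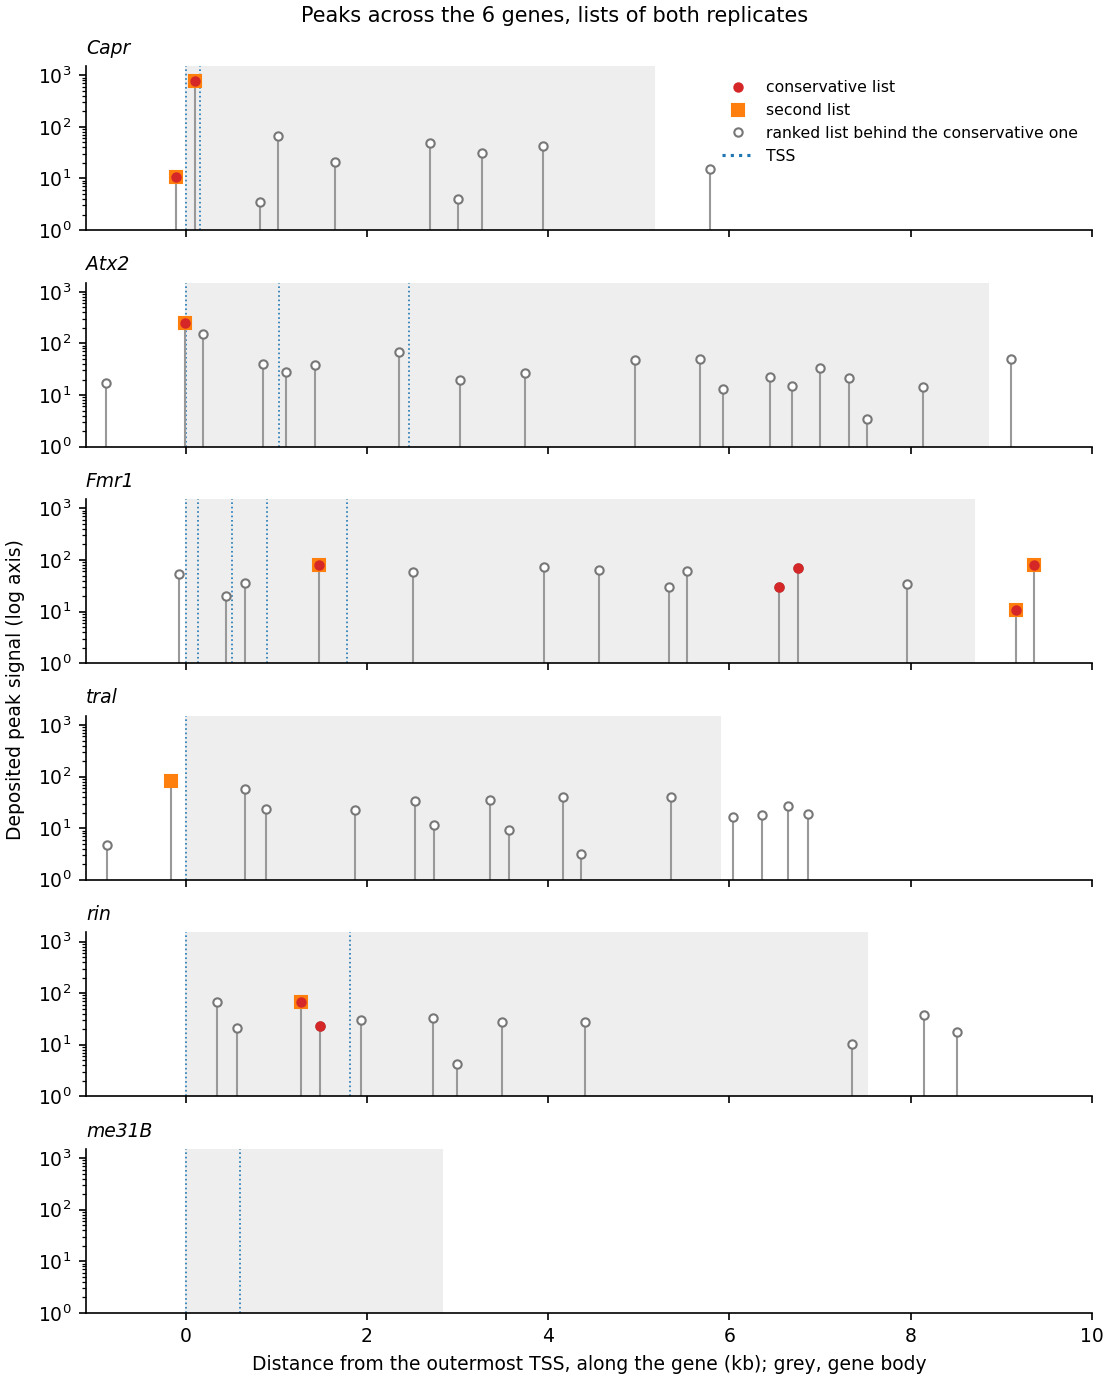
Deposited peak signal (log axis) against distance from the outermost TSS along each gene in kb, for calls in the lists across both replicates, with gene bodies in grey and TSSs as dotted lines. Thresholded calls at Capr and Atx2 stand at the outermost or next TSS with 775 and 244, those inside Fmr1 and rin lie at 79.2 or below, tral has 1 call in the second list, and me31B has none.

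The replicates were set side by side to see which of these values came back in both. The ratio of the replicate 1 signal to that of replicate 2 at the strongest ranked promoter call was 1.04 for Capr, 1.03 for Atx2, 1.34 for Fmr1, 1.15 for rin and 1.46 for tral. For all 10273 genes with a call in both, the median was 1.23, and for those with a conservative promoter summit it was 1.26, with 1 gene in 10 below 0.872 and 1 in 10 above 1.84. All 5 genes lay inside that range, although tral has no conservative promoter summit itself. The distance between the replicates' summits was 14 bp at Capr and 1 bp at Atx2, and 59 bp, 168 bp and 154 bp at Fmr1, rin and tral. The ratios of rin and tral therefore need not compare the same site, and the rin call of replicate 2 had a score of 47. Of the conservative genes, 62.2% had a promoter summit in both replicate lists, as Capr and Atx2 did, and 13.8% had one in neither, as Fmr1 and rin did. The median conservative signal of those groups was 201 and 81.8.

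**Figure D3:**
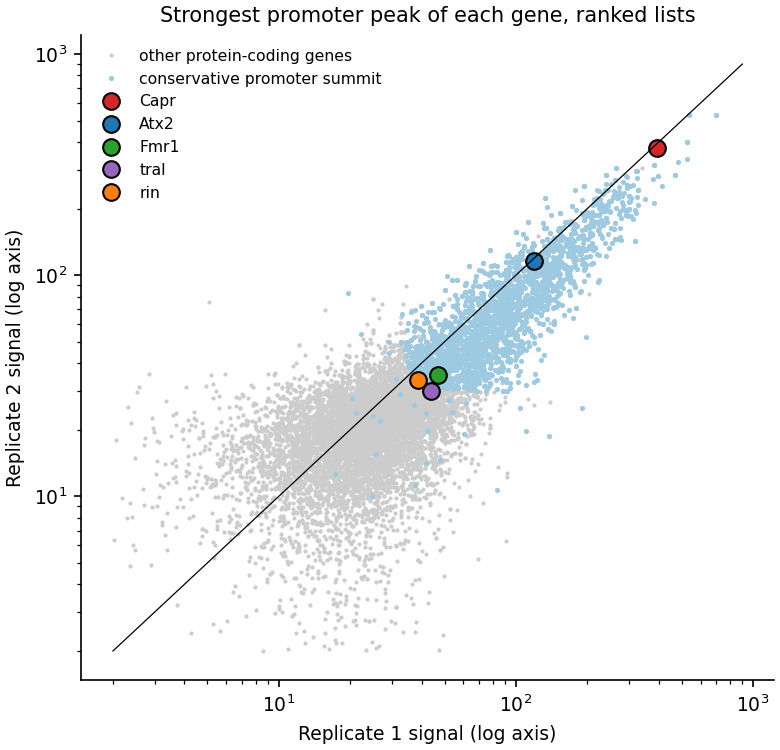
Strongest ranked promoter signal of each protein-coding gene in replicate 1 against replicate 2 (log axes), with genes that have a conservative promoter summit in light blue and the line of equal signal. Capr and Atx2 lie close to the line at 393 and 377 and at 119 and 116, while Fmr1, tral and rin sit at the lower edge of the blue cloud. me31B has no call in replicate 2 and is not drawn.

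The genes with the pattern most like each member were sought by distance in the log2 signals of the ranked lists of the replicates, over 10272 other genes and 2 values per gene. The nearest to Capr were CG7943 and the ribosomal protein gene RpL32, at a distance of 0.26. Both had 383 in replicate 1, 315 in replicate 2 and 721 in the conservative list. These values matched to every decimal, so the pair is read as 1 shared peak. The other members had closer neighbours. For Atx2 the nearest was P5CDh1 with 121 and 117 at a distance of 0.0159, and for rin CG3961 with 38.2 and 33.9 at 0.0169. For Fmr1 they were CG10903 and CG2747, again read as 1 shared peak, with 47.3 and 35.8 at 0.0215.

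Motifs were searched on both strands within 50 bp of each summit. The full DRE, TATCGATA, which is bound by DREF and BEAF-32, was found at none of the 4 conservative promoter summits, nor at the windows of tral and me31B. For the comparison the strongest conservative promoter summit of each gene was taken, which gave 1936 distinct summits. The full DRE was present at 24.2% of them and in 4.48% of 19275 windows of the same length at annotated TSSs. The DRE core CGATA was present at Capr with 4 copies and at Atx2 with 3, and at neither Fmr1 nor rin. ATCGAT, the 6 central bases of the DRE, which were searched after the result was seen, had 2 matches at Capr and 1 at Atx2. These motifs overlap, and a full DRE holds 2 copies of the core, 1 on each strand. Of the 1936 summits 66.4% had the core, against 23.6% of TSS windows, and 48.8% had ATCGAT, against 11.1%.

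At least 3 copies of the core, as at Atx2, lay at 29.0% of the 1936 summits and 4.07% of TSS windows. The values for 4 or more copies, as at Capr, were 11.2% and 1.27%. The median signal was 103 at the 651 summits without the core and 137, 156, 180 and 218 with 1, 2, 3 and 4 or more copies. The signals of Fmr1 and rin were below the median of summits without the core, and those of Capr and Atx2 above the median of their groups. The ranked call of 65.8 near the outermost TSS of rin had 1 copy. So did the strongest ranked promoter call of rin in replicate 1, while that in replicate 2 had none. At the replicates' own summits the core count was 3 and 4 at Capr and 2 in each replicate at Atx2. The windows of Capr and Atx2 also had the same GC content of 55.4%, close to 54.5% at rin and above 40.6% at Fmr1, 34.7% at me31B and 28.7% at tral. The part of base composition in the relation of copies to signal was not tested.

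**Figure D4:**
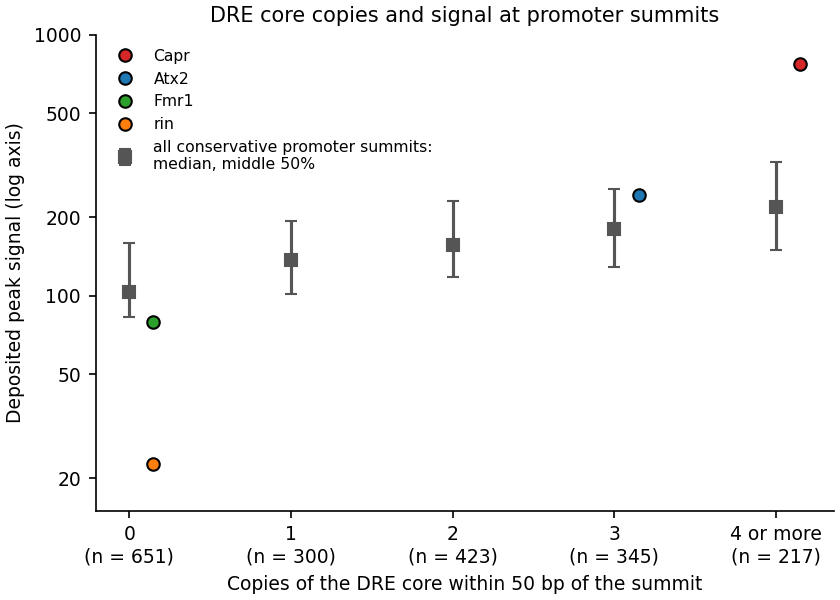
Deposited conservative peak signal (log axis) against the number of CGATA cores within 50 bp of the summit, with 4 genes as coloured points. Grey shows the median and middle 50% of 1936 distinct promoter summits, taking the strongest of each gene. Medians go from 103 without a core to 218 with 4 or more, Capr at 775 stands above its group, Atx2 at 244 lies within the middle 50% of its group, and Fmr1 and rin without a core lie low.

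The other motifs gave few matches. The M1BP core GGTCACACT, the E-box CAGCTG and AGGGGGC, the core sequence bound by the vertebrate relative INSM1, were at none of the 6 windows. They were at 3.2%, 9.61% and 0.362% of the 1936 conservative promoter summits and 3.64%, 8.77% and 0.228% of TSS windows. The TATA box TATAAA had 1 match at tral and 1 at me31B, against 10.1% of summits and 15.5% of TSS windows. The Initiator core TCAGT had 1 match at rin, against 16.3% and 31.7%. A missing match says only that these letters were not in the window.

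Other RNA granule genes were then examined in 6 lists by role, 78 genes in all. Of these, 30 (38.5%) had a conservative promoter summit, 34 (43.6%) one in the second list, 32 (41.0%) one in replicate 1 and 22 (28.2%) one in replicate 2. All of these shares over the 78 genes were above those of all genes given before. The median conservative signal was 160 for the 30 granule genes called and 148 for all protein-coding genes called. When a peak counted only for the gene with the closest TSS, 23 of the 78 genes had a conservative promoter summit, against 14.5% of all genes. Of the 18 genes named, the 3 strongest of each list, 9 had the TSS of another protein-coding gene within 500 bp of the summit. For 4 of these (DCP2, Rga, AGO1 and nanos) that TSS was nearer than their own. For Rox8, Patr-1, Tudor-SN, brat and spn-E it was farther away. None of these peaks can be assigned to the named gene alone. No test was made of these lists, and nothing is called particular to granule genes.

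Stress granule genes, the class of Capr, rin and Atx2, had 7 of 12 (58.3%) with a conservative promoter summit, against 19.4% of all genes. In replicate 2 the share was 41.7%, against 13.6% of all genes. The median conservative signal of those called was 145. The strongest were TER94, an ATPase that unfolds ubiquitinated proteins, with 229, Usp10, whose vertebrate counterpart binds G3BP, with 174, and Rox8, the fly TIA1, with 170. The genes of decapping and P bodies, the class of me31B and tral, had 5 of 15 (33.3%), against 19.4% of all genes. Their share in replicate 2 was also 33.3%, against 13.6% of all genes. Patr-1, a decapping activator, had 218, Upf1, the helicase of nonsense-mediated decay, 211, and DCP2, the decapping enzyme, 165. All of these were below Atx2.

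Deadenylation genes had 4 of 11 (36.4%), against 19.4% of all genes, and 27.3% in replicate 2, against 13.6%. They were led by Rga, a CCR4-NOT subunit, with 223, PAN3 with 194 and the CCR4-NOT scaffold Not1 with 130. Small RNA silencing genes had 5 of 11 (45.5%), against 19.4% of all genes, but 18.2% in replicate 2, against 13.6% of all genes there. Among them Tudor-SN, a nuclease, had 310, AGO1, the microRNA Argonaute, 204 and AGO2, the siRNA Argonaute, 163.

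Neuronal RNA transport and translational control, the class of Fmr1, had 6 of 20. The translational repressor nanos had 395, the highest of all 78 and still under that of Capr, with 196 in replicate 1 and 186 in replicate 2, but its summit lay 371 bp upstream of nanos and 55 bp from the TSS of CG11779. It was followed by brat, a partner of nanos in repression, with 273 and heph, a polypyrimidine tract-binding protein, with 260. Of the germ granule genes 3 of 9 had a conservative promoter summit, tud with 180 at 426 bp from its TSS, spn-E with 106 and krimp with 97.4. In the second list tud had no promoter summit, and its signal was 67.0 in replicate 1 and 32.0 in replicate 2. The germ granule list had 33.3% in the conservative list against 19.4% of all genes, but 22.2% in the second list against 21.4%. It had 11.1% in replicate 1 against 18.0%, and 22.2% in replicate 2 against 13.6%.

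**Figure D5:**
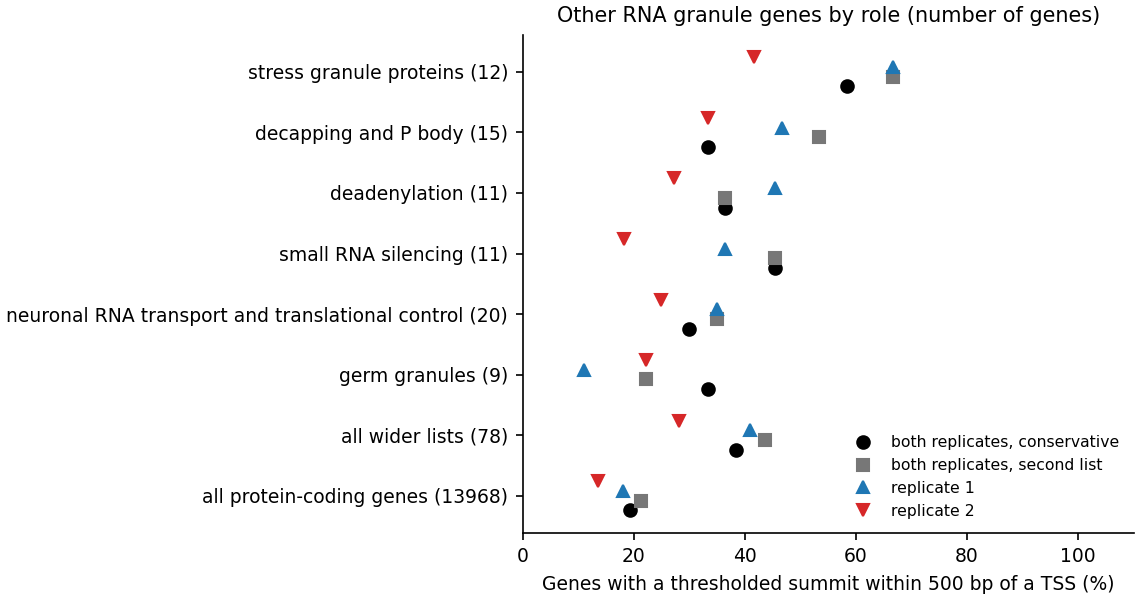
Percentage of genes with a thresholded promoter summit in each list by role and among all protein-coding genes, for the lists across both replicates and for each replicate. Stress granule genes reach 58.3% in the conservative list and all 78 genes 38.5%, against 19.4% of all protein-coding genes, and replicate 2 is the lowest in every list except the decapping and germ granule ones.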

How the data were processed

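Peak lists of 2 biological replicates of 1 group were used. The authors deposited peaks on build dm6, per the labels, ranked and thresholded by the irreproducible discovery rate. The deposited score is a whole number up to 1000, and the signal, also deposited, is the value given by the peak caller, not rescaled here. The sources used here name neither the aligner nor the peak caller. Each thresholded peak was found in its ranked list.

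TSSs came from Ensembl release 115 and sequence from the Release 6 assembly of the same build. Computation used Python 3.11.15, pandas 2.3.3 and numpy 2.4.6, and counting steps were tested on simulated data. The strongest summit within 500 bp of a TSS gave a gene's signal, and motifs were counted in windows of 101 bp. The members and lists were chosen with earlier results of these data known, so values are descriptions without tests. Named genes are the 6 members, genes sharing their summits, the 3 strongest of each list by role and each conservatively called member's nearest gene by signal. Of 78 listed symbols, 4 matched through a synonym. Windows, TSS choice, lists, replicates and motif letters were varied.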

Additional observations from a re-analysis of the deposited data

How the results depend on the processing

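The count of 4 genes with a conservative promoter summit stood against 19.4% of all genes. It fell to 2, Capr and Atx2, with a window of 250 bp (16.9% of all genes). The same 2 genes were left with the 500 strongest peaks alone (4.72%) and with the outermost TSS alone (18.4%). In the list of replicate 2 alone and in that of replicate 1 alone, both given before, the count was 2 each time (13.6% and 18.0%). It was 4 with 1000 bp (21.8%), with peak overlap (20.5%), with the nearest TSS (14.5%) and in the second list (21.4%). With the 500 strongest peaks, the 30 listed granule genes fell to 5 and the 2709 protein-coding genes to 659. These shares of 6.41% and 4.72% were closer to each other than 38.5% and 19.4%. The DRE count of 0 became 2 with the core CGATA, and 2 with the central 6 bases, which was chosen after seeing the data. The signal of rin was 67.7 with 1000 bp or peak overlap. The single replicates gave lower signals than the lists across both, 377 and 393 for Capr and 116 and 119 for Atx2. No paired analysis was possible because there is 1 group and no test. Depth is unknown from the lists, so weak and missing calls, as at me31B, cannot be read as absence of binding.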

Other observations

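Calls also lay just past the 3′ end of Fmr1, outside both the promoter window and the gene body. The conservative and second lists each held a call with a signal of 81.0 whose summit was 665 bp past the end, inside lncRNA:CR43459 and 181 bp from the microRNA gene mir-34. A neighbouring call of 10.7 had its summit 460 bp past the end, inside mir-34 (chr3R:10100936-10101034, plus strand), and overlapped the first by 195 bp. Replicate 1 held a call of 58.4 at 589 bp past the end, and replicate 2 held no thresholded call there. The signal of 81.0 was about that of the Fmr1 promoter call, 79.2.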
